A study of Homo sapiens with 9 samples.

Results

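The subject is a run of genes on the short arm of chromosome 1, at the bands 1p34 to 1p32, in human IMR-32 neuroblastoma cells made to carry a form of choline acetyltransferase. The list holds 56 genes that lie after ZMYM6 and up to EPS15 in RefSeq gene order, and no map of the bands themselves was used. The members were selected on the 82-kDa minus 69-kDa differences of these same arrays, so that comparison is described here and not tested. Of the 56 genes, 48 were measured by a probe set annotated with 1 symbol, among 11963 genes so measured in the series. MYCBP, PABPC4 and ELOVL1 had only probe sets annotated with several symbols, and CAP1, SMAP2, EBNA1BP2, DMAP1 and AKR1A1 had none under these symbols, so these 8 genes are not analysed here. The interval holds 119 measured genes in all, of which 71 are not on the list.

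Choline acetyltransferase makes the neurotransmitter acetylcholine. The arrays came from IMR-32 cells stably expressing its 82-kDa form (3 arrays), cells stably expressing its 69-kDa form (3 arrays), and cells labelled wild type (3 arrays). The series text gives the 3 arrays per condition as biological replicates. The labels do not say whether a line is a clone or a pool, and each form is carried by a line of its own, so what belongs to the form and what to the line cannot be told apart.

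Loss of part of the short arm of chromosome 1 is a recurrent change in neuroblastoma and often accompanies amplification of MYCN, the neuroblastoma oncogene. Genes that share a stretch of chromosome can move together in RNA when the number of copies of that stretch differs between cells. The genes of this run have otherwise unrelated work, from splicing of RNA and control of cell division to proteolysis and haem synthesis. DNA copy number was not measured on these arrays, and the part of gene dose in any value below was not tested.

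Values are intensities on a linear scale, made with RMA, and differences are on the log2 scale, where 1 is a doubling and a level ratio of 3 to 2 is 0.585. Array medians lay between 133.7 and 142.6. Each gene is given by its brightest probe set, and 44 of the 48 genes had a mean level at or above the median of all probe sets (139.1), which is called bright here. The dim members were CLSPN, THRAP3, INPP5B and PPCS. Levels of different genes are not compared, because probe sets differ in brightness.

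Some arrays stand apart from their labels. MYCN, which IMR-32 is known to carry amplified, had 4301, 6025 and 6118 with the 82-kDa form, 4181, 5567 and 5947 with the 69-kDa form and 62.5, 120.5 and 99.97 on the wild-type arrays. The summed intensity of 13 measured sympathoadrenal markers was 14870 to 19694 in the 82-kDa line, 12372 to 19849 in the 69-kDa line and 2107 to 2550 on the wild-type arrays, while DBH and TH, which mark catecholamine synthesis, were low on all 9 arrays. The sum of 10 epithelial markers was 584 to 698 in the 82-kDa line, 609 to 663 in the 69-kDa line and 6058 to 6801 on the wild-type arrays. By gene, 9 of the 13 sympathoadrenal markers were higher in the lines, and STMN2, GATA2, DBH and TH did not pass. Of the 10 epithelial markers 7, among them KRT8, KRT18 and KRT19, were lower in the lines, and KRT7, CLDN4 and CLDN7 did not pass. The part of this in each difference from wild type was not tested. CHAT itself had 1066, 423 and 1067 with the 82-kDa form, 256, 175 and 177 with the 69-kDa form and 148, 125 and 114 on the wild-type arrays. Replicate 1 of the 82-kDa line correlated with the 69-kDa arrays at 0.985, 0.981 and 0.977 (Pearson r of log2 values over all probe sets) and with replicates 2 and 3 of its own line at 0.978 and 0.975. Replicate 1 of the 69-kDa line likewise correlated best with replicate 1 of the 82-kDa line (0.985) and less with its own replicates 2 and 3 (0.980 and 0.976), which had 0.998 between them. Counts and medians over the members are given with and without these arrays.

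The members turn up together by position, so the stretches just upstream of the start sites of the 3 highest members in the difference between the lines are shown for what their control regions hold. RefSeq windows (GRCh38.p14) of 250 bases before to 50 after the start were listed for 43 of the 48 measured members. The 150 bases before the start are printed below 5′ to 3′ on the strand of the gene, with matches to 6 short motifs in capitals. The motifs, read on both strands, are the CCAAT box (CCAAT), the CHR element of cell-cycle promoters (TTTGAA), the GC box (GGGCGG), the ETS core (CCGGAAG), the MYC E-box (CACGTG) and the TATA box (TATAAA).
SF3A3, minus strand, chr1:37990023-37990172: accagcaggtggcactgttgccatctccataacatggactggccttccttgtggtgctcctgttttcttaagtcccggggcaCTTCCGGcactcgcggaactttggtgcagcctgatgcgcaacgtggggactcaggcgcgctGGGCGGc
CDC20, plus strand, chr1:43358831-43358980: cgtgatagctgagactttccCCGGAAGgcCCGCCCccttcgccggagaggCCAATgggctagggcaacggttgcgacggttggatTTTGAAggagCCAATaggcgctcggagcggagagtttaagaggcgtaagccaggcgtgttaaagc
NASP, plus strand, chr1:45583891-45584040: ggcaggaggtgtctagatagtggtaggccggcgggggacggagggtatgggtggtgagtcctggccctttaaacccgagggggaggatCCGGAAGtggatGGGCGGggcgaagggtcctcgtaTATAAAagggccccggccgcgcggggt

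Matches differed between these 3 windows. SF3A3, a splicing factor subunit, had an ETS core and a GC box. CDC20, the activator of the anaphase-promoting complex, had an ETS core, a GC box, a CHR element and a pair of CCAAT boxes, and NASP, a chaperone of linker and core histones, had an ETS core, a GC box and a TATA box. Over the whole windows, the GC box was in 79.1% of the 43 member promoters and 58.5% of the 15841 promoters of protein-coding genes listed. The MYC E-box was in 18.6% of the member windows and 8.88% of all windows. The CCAAT box was in 39.5% and 36.4%, the ETS core in 18.6% and 14.2%, the CHR element in 6.98% and 12.1%, and the TATA box in 6.98% and 9.63%. Median GC content was 64.3% for members and 62.7% for all windows, and the median observed-over-expected CpG ratio was 0.846 and 0.763. The comparison set held protein-coding genes whatever their level on these arrays, while 44 of the 48 measured members were bright, so the sets are unlike in level. These are letter matches and a description of the list, with no test.

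In replicates 2 and 3 of the 82-kDa line the members stood well above the 69-kDa line, and in replicate 1 they did not. The median over the 48 members of the 82-kDa minus 69-kDa difference was -0.03 for number 1, 0.71 for number 2 and 0.70 for number 3. By gene, 21 members were higher in the 82-kDa array of number 1, 47 in that of number 2 and 47 in that of number 3. The same 47 members were higher in both of the last pairs, against 30.5% of all genes. FHL3, a LIM-domain protein of the actin cytoskeleton, was the member that was not, with differences of -0.01, -0.14 and -0.02. These values chose the list, so they describe it. In RNA of whole cultures, fewer cells with a high level and less RNA per cell cannot be told apart.

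**Figure D1:**
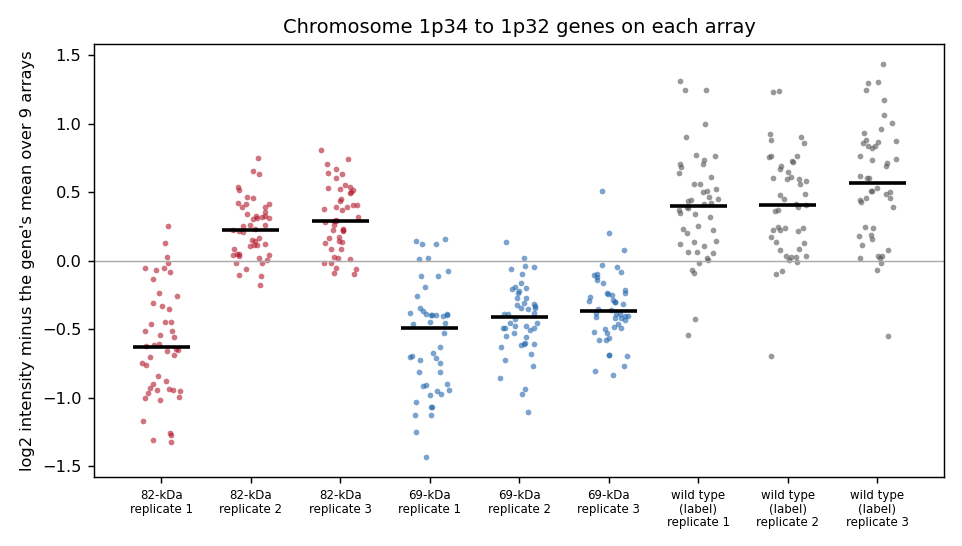
Levels of the 48 members on each of the 9 arrays, as log2 intensity minus the gene's mean over all arrays, with 1 point per gene and a bar at the median. The medians were -0.63, 0.23 and 0.29 on the 82-kDa arrays, -0.49, -0.41 and -0.37 on the 69-kDa arrays and 0.40, 0.41 and 0.57 on the wild-type arrays.

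Array by array, the member medians stood at 3 heights. The wild-type arrays were highest, replicates 2 and 3 of the 82-kDa line were next, and replicate 1 of the 82-kDa line lay with the 69-kDa arrays. The same medians over all genes stayed between -0.04 and 0.02 on every array, and over all bright genes between -0.11, in replicate 1 of the 82-kDa line, and 0.03. Replicate 1 of the 82-kDa line was below replicates 2 and 3 of that line in 45 of 48 members, a pattern found in 39.9% of all genes. Its median distance from the mean of those replicates was -0.99 over members, 0.03 over all genes and -0.13 over all bright genes. It was -0.25 over bright genes of the interval off the list and -0.56 over bright genes between EPS15 and the centromere. Over mitotic, proteasome, spliceosome and ribosome assembly genes elsewhere it was -0.51, -0.56, -0.31 and -0.47. Over members, the matching distance of replicate 1 was -0.08 in the 69-kDa line and -0.04 on the wild-type arrays. In the 69-kDa line it was also low over the mitotic, proteasome, spliceosome and ribosome assembly genes, at -0.60, -0.31, -0.22 and -0.34. It was -0.23 there over bright genes between EPS15 and the centromere, and 0.04 over bright genes of the interval off the list. In 22 members replicate 1 of the 82-kDa line lay within the range of the 69-kDa arrays (42.6% of all genes), in 19 below all of them (26.8%) and in 7 above all of them (30.5%), so the share of members within that range was near that of all genes. It was nearer the 69-kDa mean than the mean of its own replicates 2 and 3 in 46 members (95.8%), against 68.1% of all genes. The share was 71.4% of bright genes of the interval off the list and 84.5% of bright genes between EPS15 and the centromere. For the mitotic, proteasome, spliceosome and ribosome assembly genes elsewhere it was 80.8%, 100%, 77.3% and 90.9%. Replicates 2 and 3 of the 82-kDa line were above all 69-kDa arrays in 43 members, against 12.7% of all genes.

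**Figure D2:**
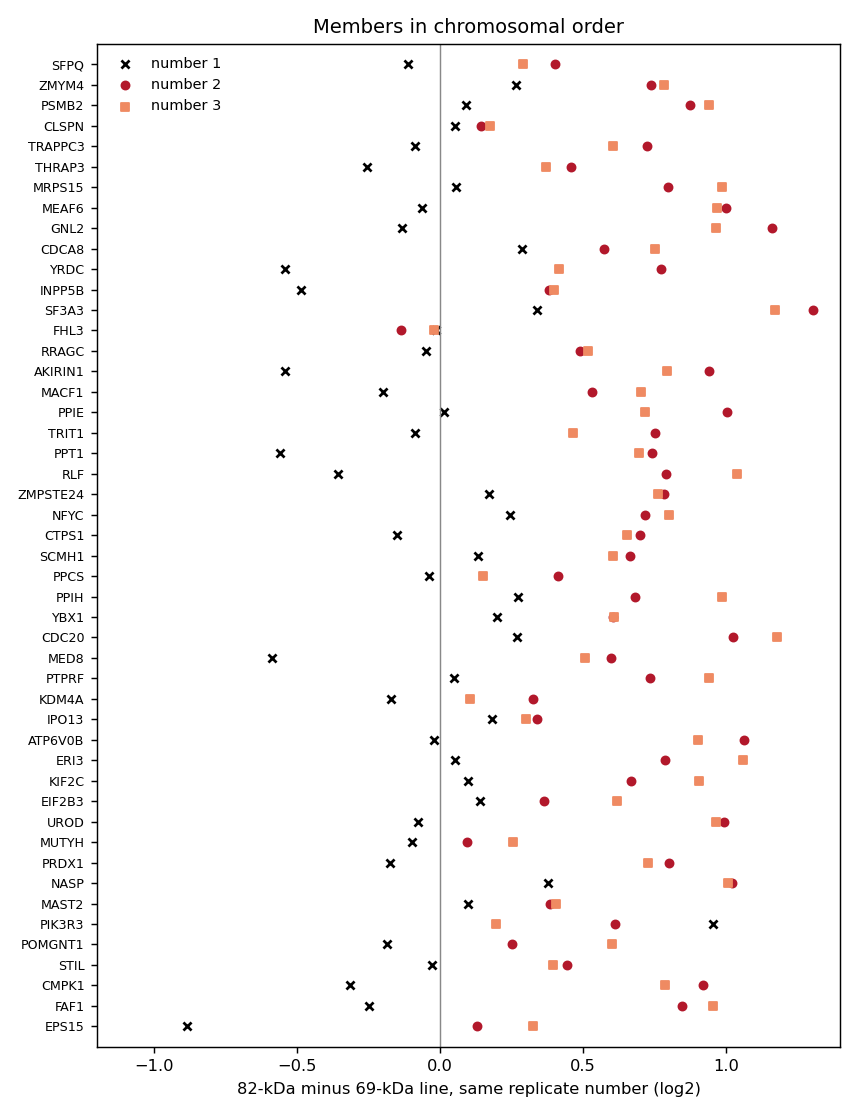
Difference between the 82-kDa and the 69-kDa line for each replicate number, in log2, for the 48 members in chromosomal order. Number 1 has a median of -0.03, and numbers 2 and 3, with medians of 0.71 and 0.70, lie right of 0 for every member except FHL3.

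Over all 3 numbers the median difference of the lines was 0.46, with an SD of 0.43 over the 3 numbers. Without replicate 1 of the 82-kDa line it was 0.77, and without replicate 2 or 3 of that line it was 0.31 or 0.28. Without replicate 1 of the 69-kDa line it was 0.34. In the limma fit of the 9 arrays, 0 of 48 members passed an adjusted p of 0.05 and 0.00% of the 22215 probe sets did. At an unadjusted p under 0.05, 12 members were higher and 0 lower, and 324 probe sets of all were higher and 409 lower. Leaving out replicate 1 of the 82-kDa line gave 6 members higher (0.117% of all probe sets) and 0 lower (0.0450%), and using only replicates 2 and 3 of each group gave 27 higher (0.981%) and 0 lower (1.06%). Nothing is read from these counts, since this contrast chose the members. The 82-kDa arrays were all above the 69-kDa arrays in 7 members (2.93% of all genes), namely PPIE, NFYC, SCMH1, PTPRF, IPO13, EIF2B3 and MAST2, and all below in 0 (3.94%). This holds for the brightest probe sets. In number 1 the other probe sets had differences of -0.23 for PPIE and -0.62, 0.18 and -0.28 for NFYC. Those of PTPRF had 0.07, 0.04 and -0.02, and those of MAST2 0.18, 0.13 and -0.21.

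Along the short arm, the difference seen in replicates 2 and 3 began near the telomeric border of the list and went on, at a lower median, beyond the centromeric one. Among the nearest measured genes outside on the telomeric side, ZMYM6, a zinc finger protein gene, had differences of -0.33, 0.06 and -0.08 for numbers 1, 2 and 3, and PHC2, GJB5 and GJA4 had means of numbers 2 and 3 of -0.01, 0.04 and 0.11. Just inside, SFPQ had -0.11, 0.40 and 0.29 and ZMYM4 had 0.26, 0.74 and 0.78. At the centromeric end FAF1 had -0.25, 0.84 and 0.95 and EPS15 had -0.88, 0.13 and 0.32. The genes just beyond it, OSBPL9, NRDC, RAB3B and ZFYVE9, had means of 0.36, 0.17, 0.58 and 0.21. The nearest genes outside were thus close to 0 on the telomeric side and above 0 on the centromeric side.

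**Figure D3:**
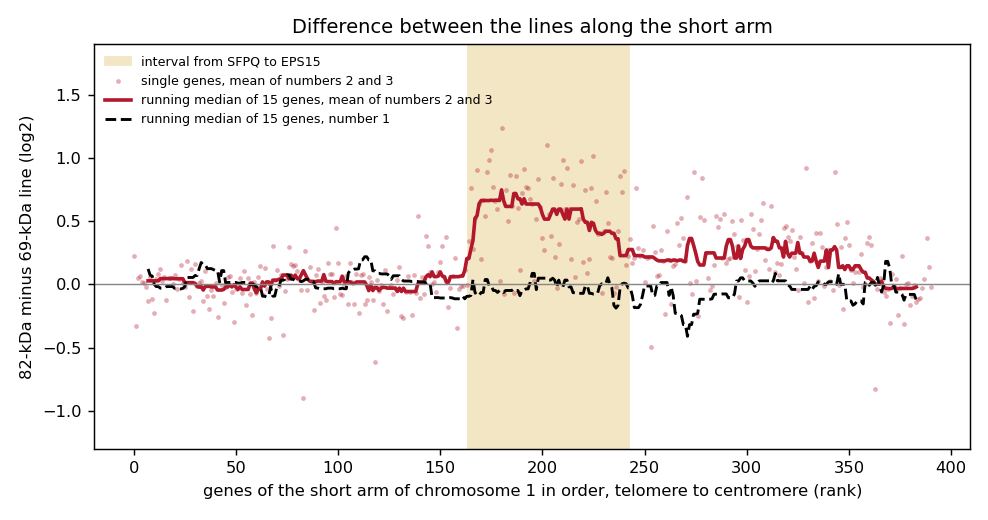
Difference between the 82-kDa and the 69-kDa line for the bright genes of the short arm of chromosome 1, in order from telomere to centromere (rank on the x axis). Points are single genes (mean of numbers 2 and 3), the solid line is their running median over 15 genes and the dashed line that of number 1. In the shaded interval, from SFPQ to EPS15, the solid line is raised, while the dashed line stays near 0 there. Beyond it, the 148 bright genes between EPS15 and the centromere had a median of 0.18 (mean of numbers 2 and 3).

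Bright genes were also summarised in runs of about 16 neighbours, members or not. Telomeric of the interval, the runs RPA2 to PTP4A2 and KHDRBS1 to ZMYM6 had medians of 0.01 and 0.03 (mean of numbers 2 and 3). Inside it, the 5 runs from SFPQ to EPS15 had medians of 0.65, 0.70, 0.53, 0.56 and 0.40. Centromeric of it, OSBPL9 to TMEM59 and SSBP3 to PDE4B had 0.22 and 0.19. The 5 runs inside held 9, 13, 8, 8 and 6 members, and the runs outside held none. Since members were chosen on this same difference, the medians of the runs are set in part by that choice. The last run inside, from PIK3R3 to EPS15, held the fewest members and had the lowest of the 5 medians. The runs beyond it were lower again. For number 1 the medians of the same 9 runs lay between -0.23 and 0.02.

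Genes of the interval that were left off the list had a smaller median in the same direction. Of 35 bright ones, 27 were higher in the 82-kDa line in both replicates 2 and 3, with a median of 0.28, and over all 71 the median was 0.15. The 164 bright genes between the telomere and ZMYM6 had a median of 0.01, the 148 between EPS15 and the centromere 0.18, and the 320 of the long arm -0.002. On the other 22 chromosomes the median over genes was between -0.05 and 0.03 for the mean of numbers 2 and 3, and between -0.29 and 0.03 for number 1. Because those differences chose the list, its distance from the rest of the interval is set in part by that choice. The 5 brightest genes left off were RNF11, ELAVL4, FOXJ3, UTP11 and MAP7D1. In that order, the differences between the lines were 0.15, 0.73, 0.52, 0.75 and 0.54 (mean of numbers 2 and 3). Both lines minus wild type was 0.24, 4.84, 0.20, -0.91 and -0.55. Of these, ELAVL4 (adjusted p = 2.1e-05) and MAP7D1 (0.0064) passed in limma. RNF11, a ubiquitin ligase, had 621, 1286 and 1598 with the 82-kDa form, 764, 1257 and 1324 with the 69-kDa form and 713, 1064 and 1028 on the wild-type arrays. ELAVL4, a neuronal RNA-binding protein, had 1401, 3733 and 4138 with the 82-kDa form, 1128, 2252 and 2482 with the 69-kDa form and 64.0, 96.8 and 79.6 on the wild-type arrays, so that it was far below both lines on the wild-type arrays.

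Against the arrays labelled wild type, the members were mostly lower. In this balanced design the mean of both lines minus wild type is uncorrelated with the difference between the lines only if the lines have equal spread. Leaving out replicate 1 of the 82-kDa line moved both. The median difference between the lines went from 0.46 to 0.77, and that of both lines minus wild type from -0.77 to -0.52. The rule for the list also names each line against wild type, and earlier results were known. Some named genes were picked by their p in both lines minus wild type, so the counts of that contrast describe the list and support nothing beyond it. Over the 48 members its median was -0.77 (6 arrays against 3), and 26 members were lower and 1 was higher (limma, adjusted p under 0.05), where 17.8% of all probe sets were lower and 13.2% higher. Of the 44 bright members 25 were lower (56.8%), against 25.9% of all bright genes. The members lower were PSMB2, TRAPPC3, MRPS15, YRDC, SF3A3, RRAGC, MACF1, PPIE, TRIT1, ZMPSTE24, NFYC, PPCS, PPIH, CDC20, MED8, IPO13, ATP6V0B, ERI3, EIF2B3, UROD, PRDX1, MAST2, POMGNT1, STIL, CMPK1 and FAF1, and the member higher was PIK3R3. Without replicate 1 of the 82-kDa line, 31 members were lower (18.4% of all probe sets) and the median was -0.52, and without replicate 1 of the 69-kDa line 22 were lower and the median was -0.69. The count was 17 without replicate 2 of the wild-type arrays and 16 without their replicate 3. For the counts of 22, 17 and 16 the share of all probe sets lower is not given here. A loss among the members thus cannot be told apart from a loss over all probe sets in those fits. Leaving out 1 array at a time, 15 of the 27 members kept the call in every fit and 12 lost it in at least 1. With the replicate number as a block, 30 members were lower, where 22.3% of all probe sets were. MEAF6 (adjusted p = 0.012), GNL2 (0.033), CDCA8 (0.026) and PPT1 (0.022) were gained and none of the 26 was lost.

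The telomeric neighbours off the list were lower too. Bright genes between the telomere and ZMYM6 were lower in the lines in 102 of 164 cases and higher in 3. Bright genes of the interval that are not members were lower in 10 of 35 (28.6%) and higher in 1. Of the 148 bright genes between EPS15 and the centromere, 13 were lower and 48 higher. Over all bright genes, 1797 of 6943 (25.9%) were lower and 1280 (18.4%) higher, so the non-members of the interval were lower at about the share of all bright genes. By runs of neighbours, the median of both lines minus wild type was -0.75 and -0.48 telomeric of the interval, -0.60, -0.65, -0.32, -0.42 and -0.70 inside it, and 0.47 and 0.10 centromeric of it. The sign of these medians changed at the centromeric border, near EPS15, and did not change at the telomeric one.

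**Figure D4:**
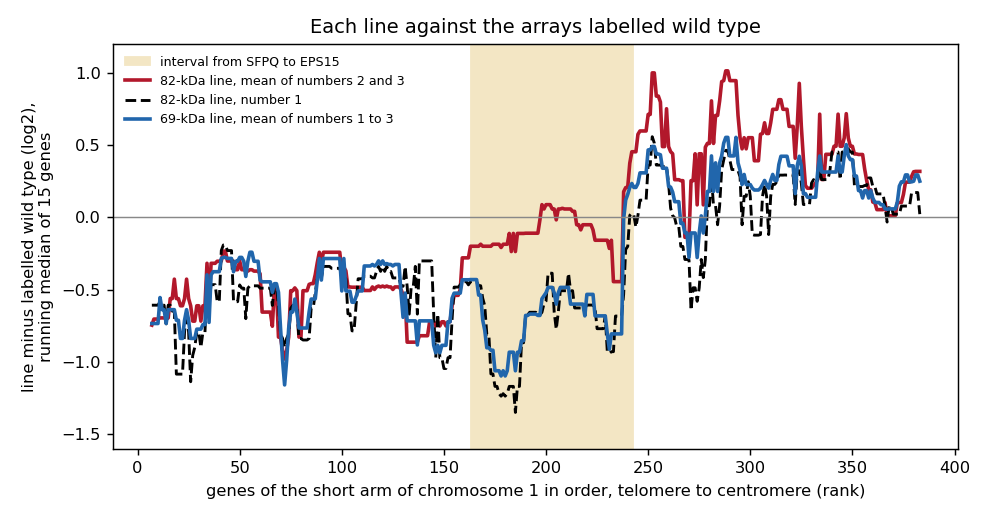
Each line minus the arrays labelled wild type along the short arm of chromosome 1, as running medians over 15 bright genes (log2). Inside the shaded interval the mean of replicates 2 and 3 of the 82-kDa line lies above replicate 1 of that line and above the 69-kDa line, and telomeric of it the 3 curves run together below 0.

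Each line taken alone shares its arrays with the contrast that chose the members, and both share the wild-type arrays, so their counts are a description. The 82-kDa line was lower than wild type in 12 members and higher in 1, PIK3R3, where 15.7% of all probe sets were lower and 11.0% higher, with a median of -0.46. Of the 44 bright members 11 were lower (25%), against 22.9% of all bright genes, so this count was near the share of bright genes. The median of this line by number was -1.06, -0.14 and -0.22. Without its replicate 1 the median was -0.15, with 13 members lower (3322 of the 22215 probe sets) and 2 higher (2733 of them), PTPRF and PIK3R3, and without its replicate 3 the median was -0.70. With replicates 2 and 3 of every group, 18 members were lower (20.2% of all probe sets) and 5 higher (19.4%), which were SFPQ, ZMYM4, PTPRF, NASP and PIK3R3. With the replicate number as a block, 20 members were lower, where 20.3% of all probe sets were. The 69-kDa line was lower than wild type in 28 members and higher in 0, where 15.3% of all probe sets were lower and 10.9% higher, with a median of -0.95 and medians by number of -0.982, -0.894 and -0.998. Of the 44 bright members 27 were lower (61.4%), against 21.9% of all bright genes. With the replicate number as a block 36 members were lower, where 19.9% of all probe sets were. The count of 28 was 18 without replicate 3 of the wild-type arrays, and without replicate 1 of the 69-kDa line it was 22, with a median of -0.87. For the counts of 18 and 22 the share of all probe sets lower is not given here either.

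Overlap of the arrays gave a like order. All 82-kDa arrays were below all wild-type arrays in 22 members (24.6% of all genes) and above them in 1 (21.1%), PIK3R3. All 69-kDa arrays were below all wild-type arrays in 41 members (24.3% of all genes), and SFPQ, INPP5B, FHL3, KDM4A, MUTYH, PIK3R3 and EPS15 were the 7 that overlapped, with 0 above (22.9%). Replicate 1 of the 82-kDa line was below all wild-type arrays in 45 members, against 37.0% of all genes, and replicates 2 and 3 were both below them in 22, against 29.0%.

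The members that act in RNA processing and splicing were 7, with a median 82-kDa minus 69-kDa difference of 0.83 (mean of numbers 2 and 3). Of the 7, 4 were lower in the lines than on the wild-type arrays, against 25.9% of all bright genes. SF3A3, a subunit of the SF3A splicing complex, had 319.8, 706 and 740.0 with the 82-kDa form, 253, 286 and 329 with the 69-kDa form and 719, 679 and 784 on the wild-type arrays. Replicates 2 and 3 of the 82-kDa line were at the height of the wild-type arrays, and its replicate 1 was near the 69-kDa arrays. Both lines minus wild type was -0.87 ± 0.25 (SE; adjusted p = 0.028), and the adjusted p was 0.054 to 0.10 without replicate 2 of the 69-kDa line or any of the wild-type arrays. PPIE, a cyclophilin of the spliceosome, had 177, 261 and 264 with the 82-kDa form, 175, 130.2 and 161 with the 69-kDa form and 663, 517 and 689 on the wild-type arrays. All arrays of both lines were below the wild-type arrays, at -1.71 ± 0.16 (SE; adjusted p = 6.8e-05), or 3.28-fold lower in the lines. ERI3, a member of an exoribonuclease family, had 152, 311 and 338 with the 82-kDa form, 147, 181 and 162 with the 69-kDa form and 579.5, 541 and 654 on the wild-type arrays, a difference of -1.54 ± 0.23 (SE; adjusted p = 0.001). PPIH, another spliceosomal cyclophilin, was at -0.78 ± 0.23 (SE; adjusted p = 0.031), with an adjusted p of 0.053 to 0.14 without replicate 1 of the 69-kDa line or replicate 2 or 3 of the wild-type arrays. YBX1, an RNA- and DNA-binding protein of the cold-shock family, had 4734, 8978 and 9641 with the 82-kDa form, 4128, 5901 and 6319 with the 69-kDa form and 7458, 6899.7 and 8829 on the wild-type arrays and did not pass (-0.29 ± 0.24 (SE; adjusted p = 0.4)). THRAP3, which binds spliceosomes and transcription complexes, was dim, with differences between the lines of -0.25, 0.46 and 0.37.

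SFPQ, a nuclear RNA-binding protein of paraspeckles, needs its own reading because its probe sets disagree. Its brightest probe set had 1958, 3575 and 3604 with the 82-kDa form, 2119, 2705 and 2947 with the 69-kDa form and 2623, 2947 and 3119 on the wild-type arrays, with both lines minus wild type at -0.07 ± 0.20 (SE; adjusted p = 0.79). Its 3 other probe sets had 0.11, -1.47 (adjusted p = 0.0059) and -0.73 for the same comparison. Of the 18 members with over 1 probe set, 15 had probe sets that shared a direction in both lines minus wild type, and KDM4A, MAST2 and SFPQ did not. None of the 18 had probe sets that passed in opposite directions. Probe sets that share a direction can still differ in size and in passing, as those of PSMB2 did.

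Members of the ribosome, tRNA and translation group were 5, with a median difference between the lines of 0.61. Lower than wild type were 4 of the 5, against 25.9% of all bright genes. GNL2, a GTPase needed to assemble the large ribosomal subunit, had 111, 417 and 463 with the 82-kDa form, 121, 187 and 237 with the 69-kDa form and 285, 402 and 482 on the wild-type arrays. Replicates 2 and 3 of the 82-kDa line overlapped the wild-type arrays, and both lines minus wild type was -0.79 ± 0.45 (SE; adjusted p = 0.23), which passed with the replicate block (adjusted p = 0.033). MRPS15, a protein of the small mitochondrial ribosomal subunit, had 139.8, 353 and 400.1 with the 82-kDa form, 135, 203 and 202 with the 69-kDa form and 329, 449.8 and 699 on the wild-type arrays. Its difference from wild type was -1.10 ± 0.36 (SE; adjusted p = 0.048), and the adjusted p was 0.053 to 0.20 without any of the 69-kDa arrays, replicate 2 of the 82-kDa line or replicate 2 or 3 of the wild-type arrays, and 0.055 to 0.065 with other scalings or a pseudocount of 16. EIF2B3, a subunit of the exchange factor that reloads the initiation factor eIF2 with GTP, had 543, 690.2 and 789 with the 82-kDa form, 492, 536 and 514 with the 69-kDa form and 837, 791 and 1019.7 on the wild-type arrays. Its 82-kDa arrays were all above its 69-kDa arrays and below its wild-type arrays, and it passed at -0.58 ± 0.13 (SE; adjusted p = 0.0076). YRDC, which makes the threonylcarbamoyl group of tRNA, had 138, 293 and 298 with the 82-kDa form, 202, 172 and 224 with the 69-kDa form and 354, 439.8 and 451 on the wild-type arrays and was at -0.95 ± 0.24 (SE; adjusted p = 0.016), with an adjusted p of 0.064 without replicate 2 and 0.066 without replicate 3 of the wild-type arrays. TRIT1, a tRNA isopentenyltransferase, was at -0.48 ± 0.15 (SE; adjusted p = 0.043), with an adjusted p of 0.050 to 0.17 without any of the 69-kDa arrays or replicate 2 or 3 of the wild-type arrays.

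Genes of mitosis, DNA replication and repair numbered 7, with a median difference between the lines of 0.66, and 2 of the 7, CDC20 and STIL, were lower than wild type. CDC20 had 296, 708 and 883 with the 82-kDa form, 246, 348 and 391 with the 69-kDa form and 1657, 1571 and 1580.5 on the wild-type arrays. No array of either line reached the wild-type arrays, and within each line replicate 1 was the lowest. The difference from wild type was -1.90 ± 0.31 (SE; adjusted p = 0.0016), or 3.74-fold lower in the lines. NASP had 924, 2311 and 2494 with the 82-kDa form, 712, 1139 and 1240.2 with the 69-kDa form and 1898, 1742 and 2026 on the wild-type arrays. In replicates 2 and 3 of the 82-kDa line NASP was above every wild-type array, and in the other 4 arrays of the lines it was below them, so that both lines minus wild type was -0.51 ± 0.32 (SE; adjusted p = 0.26). STIL, a centriole duplication factor, had 138, 267 and 302 with the 82-kDa form, 141, 196 and 229.7 with the 69-kDa form and 324, 418 and 357 on the wild-type arrays and was at -0.84 ± 0.25 (SE; adjusted p = 0.035), with an adjusted p of 0.054 to 0.13 without replicate 1 or 2 of the 69-kDa line or any of the wild-type arrays, and 0.053 with median centring. CDCA8, a subunit of the chromosomal passenger complex, had 536, 1041 and 1125 with the 82-kDa form, 439, 699 and 669 with the 69-kDa form and 1134, 1066 and 1106 on the wild-type arrays, and KIF2C, a kinesin that takes microtubules apart, had 404, 972 and 1083 with the 82-kDa form, 377, 611 and 578 with the 69-kDa form and 1208, 949 and 1015 on the wild-type arrays. They were at -0.63 ± 0.24 (SE; adjusted p = 0.084) and -0.76 ± 0.31 (SE; adjusted p = 0.097). MUTYH, a glycosylase of base excision repair, differed little between the lines, by -0.10, 0.09 and 0.26, and CLSPN, a replication checkpoint adaptor, was dim.

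**Figure D5:**
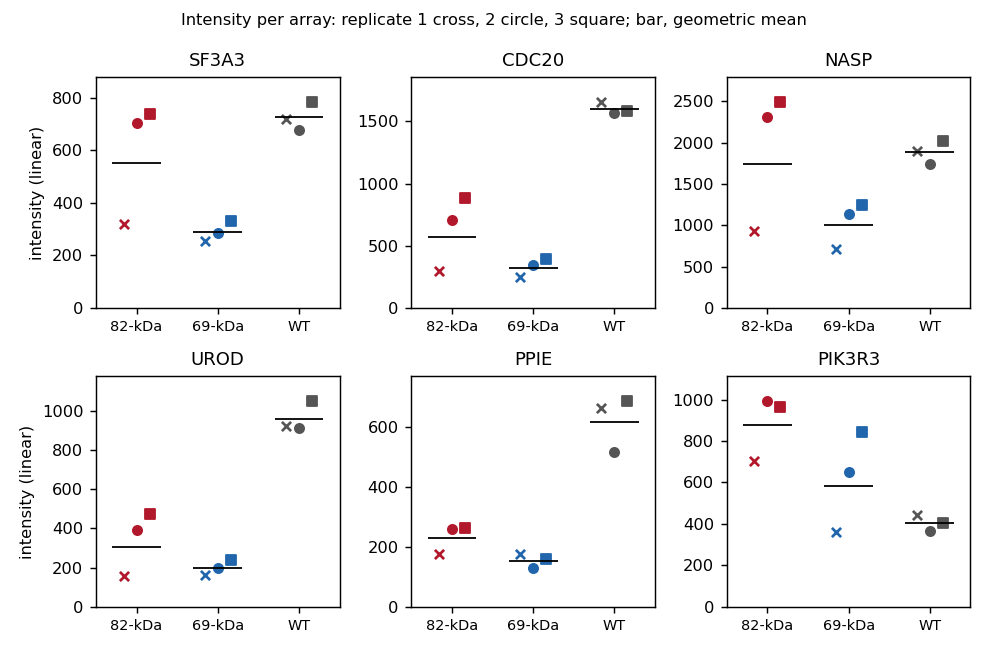
Intensity on a linear scale of 6 members on each array (cross, circle and square for replicates 1, 2 and 3) with the geometric mean of each group as a bar. In SF3A3, CDC20, NASP and UROD replicate 1 of the 82-kDa line lies well below replicates 2 and 3, at 320, 296, 924 and 155, and PIK3R3 is the member that is higher in the lines than on the wild-type arrays.

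The chromatin and transcription group held 8 members, with a median difference between the lines of 0.76. NFYC and MED8, 2 of the 8 (25%), were lower than wild type, near the 25.9% of all bright genes. NFYC, the C subunit of the CCAAT-binding factor NF-Y, had 301, 388 and 387 with the 82-kDa form, 254, 236 and 222 with the 69-kDa form and 450.1, 385 and 454 on the wild-type arrays. In its brightest probe set the 82-kDa arrays were all above the 69-kDa arrays, and both lines minus wild type was -0.56 ± 0.11 (SE; adjusted p = 0.0035). MED8, a Mediator subunit, had 129.7, 257 and 245 with the 82-kDa form, 195, 169.8 and 172 with the 69-kDa form and 420.2, 378 and 474 on the wild-type arrays, and all arrays of the lines were below the wild-type arrays (-1.15 ± 0.21 (SE; adjusted p = 0.0026)). MEAF6, a subunit of histone acetyltransferase complexes, had 294, 753 and 913 with the 82-kDa form, 308, 377 and 466 with the 69-kDa form and 685, 928 and 958 on the wild-type arrays. It was at -0.85 ± 0.33 (SE; adjusted p = 0.09), and it passed with the replicate block (adjusted p = 0.012), as it did when replicate 1 or replicate 3 of the 82-kDa line was left out (0.027 and 0.042). ZMYM4, a zinc finger protein, had 373, 709 and 801 with the 82-kDa form, 310.3, 426 and 465 with the 69-kDa form and 507, 609 and 608 on the wild-type arrays, with replicates 2 and 3 of the 82-kDa line above all wild-type arrays. Both lines minus wild type was -0.24 ± 0.24 (SE; adjusted p = 0.47) for ZMYM4 and -0.03 ± 0.08 (SE; adjusted p = 0.81) for KDM4A, a histone lysine demethylase.

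Metabolic and redox enzymes numbered 5, with a median difference between the lines of 0.76. Against 25.9% of all bright genes, 4 of the 5 were lower than wild type. UROD, which carries out a decarboxylation step of haem synthesis, had 155, 394 and 472 with the 82-kDa form, 164, 198 and 241 with the 69-kDa form and 921, 911 and 1052 on the wild-type arrays. Every array of the lines was below every wild-type array, at -1.96 ± 0.32 (SE; adjusted p = 0.0015), or 3.89-fold lower in the lines. CMPK1, which phosphorylates UMP and CMP, had 146, 437 and 462 with the 82-kDa form, 182, 231 and 268 with the 69-kDa form and 586, 667 and 629 on the wild-type arrays and was at -1.25 ± 0.34 (SE; adjusted p = 0.022), with an adjusted p of 0.059 to 0.079 when any of the wild-type arrays was left out. PPCS, an enzyme of coenzyme A synthesis and a dim member, had 100.2, 135 and 128 with the 82-kDa form, 103, 101 and 115 with the 69-kDa form and 197, 204 and 194 on the wild-type arrays. Its difference was -0.81 ± 0.10 (SE; adjusted p = 0.00034). PRDX1, a peroxiredoxin, had 3220.0, 6481 and 6440.5 with the 82-kDa form, 3637, 3725 and 3891 with the 69-kDa form and 7442, 6977 and 8053 on the wild-type arrays and was at -0.77 ± 0.21 (SE; adjusted p = 0.021), with an adjusted p of 0.054 to 0.084 when any of the wild-type arrays was left out. CTPS1, which makes CTP, did not pass (-0.36 ± 0.24 (SE; adjusted p = 0.28)).

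In the proteolysis and lysosome group, 6 members had a median difference between the lines of 0.84. Lower than wild type were 5 of the 6, against 25.9% of all bright genes. ATP6V0B, a membrane subunit of the proton pump that acidifies lysosomes, had 872, 1579 and 1589 with the 82-kDa form, 884, 755 and 849.7 with the 69-kDa form and 2333, 2144 and 2657 on the wild-type arrays. Both lines lay below the wild-type arrays throughout, at -1.19 ± 0.19 (SE; adjusted p = 0.0014). PSMB2, a beta subunit of the core proteasome, had 844, 1942 and 2199 with the 82-kDa form, 792, 1059 and 1146 with the 69-kDa form and 2474, 2759.6 and 3264 on the wild-type arrays and was at -1.19 ± 0.29 (SE; adjusted p = 0.012), with an adjusted p of 0.058 without replicate 3 of the wild-type arrays. The other PSMB2 probe set, also bright, was at only -0.19 in both lines minus wild type and did not pass (limma, adjusted p = 0.17). RRAGC, a Rag GTPase that brings mTORC1 to the lysosome, had 355, 448 and 463 with the 82-kDa form, 367, 319 and 324 with the 69-kDa form and 904, 713 and 794 on the wild-type arrays. Its difference from wild type was -1.09 ± 0.11 (SE; adjusted p = 0.00011), or 2.13-fold lower in the lines, and no array of either line reached the wild-type arrays. ZMPSTE24, the protease that trims prelamin A, was at -1.07 ± 0.31 (SE; adjusted p = 0.027), with an adjusted p of 0.061 to 0.10 when any of the wild-type arrays was left out. FAF1, an adaptor of the p97 segregase, was at -1.04 ± 0.20 (SE; adjusted p = 0.0036). PPT1, a lysosomal thioesterase, had 363, 1204 and 1169.6 with the 82-kDa form, 535, 720.3 and 722 with the 69-kDa form and 1216, 1358 and 1608 on the wild-type arrays. It was at -0.94 ± 0.36 (SE; adjusted p = 0.082) and passed with the replicate block (adjusted p = 0.022), as it did when replicate 1 of the 82-kDa line was left out (0.0060).

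Membrane and nuclear transport was the group with the lowest median difference between the lines among the 8 groups, 0.35 over 4 members. Of the 4, 2 were lower than wild type, against 25.9% of all bright genes. TRAPPC3, a core subunit of the TRAPP tethering complexes, had 239.7, 539 and 531 with the 82-kDa form, 255, 326 and 349 with the 69-kDa form and 771, 869 and 1003 on the wild-type arrays and was at -1.31 ± 0.26 (SE; adjusted p = 0.0043). IPO13, a nuclear import receptor, had 373, 373 and 400.3 with the 82-kDa form, 329, 295 and 325 with the 69-kDa form and 488, 413 and 428 on the wild-type arrays, where the 3 groups did not overlap, and was at -0.35 ± 0.08 (SE; adjusted p = 0.0084). EPS15, an endocytic adaptor and the last gene of the list, had 336, 634 and 823 with the 82-kDa form, 620.1, 579 and 657 with the 69-kDa form and 391, 606 and 646 on the wild-type arrays. Its replicate 1 was the lowest of the 82-kDa line, and it did not pass against wild type (0.14 ± 0.27 (SE; adjusted p = 0.72)). INPP5B, an inositol phosphatase, was dim.

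The cytoskeleton, adhesion and signalling group of 6 had a median difference between the lines of 0.42. Against wild type, 3 members were lower and 1 was higher, where 25.9% of all bright genes were lower and 18.4% higher. PIK3R3, a regulatory subunit of PI3-kinase, had 704, 994 and 964 with the 82-kDa form, 363, 650.0 and 842 with the 69-kDa form and 441, 365 and 404 on the wild-type arrays. It was the only member that was higher in the lines, at 0.83 ± 0.24 (SE; adjusted p = 0.03). The adjusted p was 0.059 to 0.11 without replicate 2 of the 69-kDa line, replicate 2 or 3 of the 82-kDa line or any of the wild-type arrays. It also departed from the list in the difference between the lines, which was largest for number 1 (0.96, 0.61 and 0.20). PTPRF, a receptor tyrosine phosphatase, had 780.1, 1166 and 1171 with the 82-kDa form, 754, 702 and 609.6 with the 69-kDa form and 780.1, 764 and 780.1 on the wild-type arrays, with replicates 2 and 3 of the 82-kDa line above all other arrays. MAST2, a microtubule-associated kinase, was at -0.38 ± 0.10 (SE; adjusted p = 0.016), with an adjusted p of 0.069 without replicate 1 of the wild-type arrays. MACF1, a spectraplakin that links actin and microtubules, was at -1.12 ± 0.23 (SE; adjusted p = 0.005). POMGNT1, a glycosyltransferase acting on dystroglycan, had 265, 374 and 413 with the 82-kDa form, 302, 315 and 272 with the 69-kDa form and 509, 589 and 648 on the wild-type arrays and was at -0.86 ± 0.14 (SE; adjusted p = 0.0019). FHL3 had 200.4, 162 and 177 with the 82-kDa form, 202, 179 and 179.6 with the 69-kDa form and 192, 175 and 188 on the wild-type arrays, with the 3 groups at about the same level (-0.01 ± 0.09 (SE; adjusted p = 0.91)).

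Genes of the same work elsewhere in the genome had smaller median differences between the lines. A list of 26 mitotic genes, all measured, had a median 82-kDa minus 69-kDa difference of 0.18 (mean of numbers 2 and 3), with 10 lower and 1 higher in both lines minus wild type. Proteasome core subunits elsewhere, 12 measured of 13 listed, had a median of 0.07, with 4 lower and 0 higher than wild type. Spliceosome genes elsewhere, 22 measured, had 0.08, with 5 lower and 2 higher. Ribosome assembly genes elsewhere, 11 measured of 16 listed, had 0.11, with 1 lower and 2 higher. Over all bright genes 25.9% were lower and 18.4% higher. The 82-kDa line was higher in both numbers 2 and 3 in 80.8%, 66.7%, 50% and 72.7% of these lists, in that order, against 35.2% of all bright genes. In number 1 it was higher in 23 of the 26 mitotic genes, with a median of 0.25. Each of the 4 list medians for the mean of numbers 2 and 3 is below the median of 0.67 over the members, whose values chose them. Among the members, the mean level and the difference between the lines (mean of numbers 2 and 3) had a Spearman correlation of 0.37, and the mean level and both lines minus wild type had -0.10, over 48 genes that share the same arrays.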

How the data were processed

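RNA of 9 samples was measured on single-channel oligonucleotide arrays. The deposited table holds RMA intensities of each probe set (RMA per the submitters' processing notes) on a linear scale, from 14.9 to 21486. No source used here gives the software version or the step from RMA's usual log2 values back to a linear scale. The table had 22283 probe sets, of which 68 AFFX controls were left out and 22215 tested. The platform annotation gave 1 symbol to 19065 of all probe sets, several to 1043 and none to 2107. Of the 19065, 19059 matched the RefSeq gene table (GRCh38.p14) by Entrez identifier, which was used only for gene order.

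Groups and replicate numbers came from sample titles. Log2 intensities, with no pseudocount, entered limma 3.58.1 (R 4.3.3; lmFit on 3 group means, contrasts.fit, eBayes; two-sided), with Benjamini-Hochberg adjustment over the 22215 probe sets and a threshold of 0.05. The fit was tested on simulated data. Each gene was read by the probe set with the highest mean over the 9 arrays. A 2-sided exact permutation test of 3 arrays against 3 cannot go below 0.1 and was not used. The number of arrays limits the precision.

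The members, gene groups and named genes were chosen with earlier results of these data known. Named genes were, per group, the 2 largest and 1 smallest in 82-kDa minus 69-kDa and the 2 with the smallest adjusted p in both lines minus wild type, then the 5 highest and 5 lowest of all members, the genes at the borders, the 5 brightest genes of the interval that are no members, CHAT and marker genes. MYCN, TRIT1, YBX1, PPIH, CDCA8, KIF2C, CLSPN, CTPS1, PRDX1, ZMPSTE24, FAF1, MAST2 and members listed by a count were added to complete their groups or after their values were seen.

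Same-numbered arrays deviated together from their group means (r of 0.28 to 0.57 in all 9 pairs). Arrays of replicates 2 and 3 of different groups also did, at 0.21 to 0.48. Replicate 2 of the 82-kDa line had 0.37 with replicate 2 and 0.48 with replicate 3 of the 69-kDa line. Whether the numbers 2 and 3 pair the samples therefore cannot be told from these values. Alternatives were the replicate block, another normalization, a pseudocount of 16, filters, other probe set rules, array weights (gene by gene), a threshold of 0.01 and leaving out arrays. A fit of replicates 2 and 3 was added after seeing the data.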

Additional observations from a re-analysis of the deposited data

How the results depend on the processing

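Among the 34 named genes, 22 of which passed in both lines minus wild type, 611 of 664 values under the alternatives stayed on their side of the threshold, 42 lost it and 11 gained it. The sign differed in 10 values, 5 of FHL3, 3 of KDM4A and 2 of EPS15, none of which passed. For the 82-kDa minus 69-kDa difference, members higher numbered 42 with array weights and 27 with replicates 2 and 3 of every group (0.981% of all probe sets), and leaving out 1 array gave 0 to 6 with medians of 0.28 to 0.77. The share of all probe sets higher with array weights is not given here, so the 42 cannot be set against it. This contrast chose the members, and nothing is read from these counts. The 69-kDa minus wild type median was -0.88 with a further quantile normalization, -0.85 without _x_at and _s_at probe sets and -0.87 with replicates 2 and 3; members lower numbered 14 without such probe sets and 18 at 0.01, and 1 was higher with array weights and 1 with replicates 2 and 3. Leaving out 1 array gave 18 to 37 lower, 0 to 1 higher and medians of -1.01 to -0.87. For 82-kDa minus wild type, members higher numbered 2 with quantile normalization, 2 with array weights, 0 at 0.01 and 5 with replicates 2 and 3, and members lower 7 without _x_at and _s_at probe sets, 20 with the replicate block and 5 at 0.01; leaving out 1 array gave 8 to 15 lower, 0 to 2 higher and medians of -0.70 to -0.15. For both lines minus wild type, members lower numbered 14 without such probe sets, where 30 members were measured, and 15 at 0.01, where 0 were higher, and leaving out 1 array gave 16 to 31 lower, 0 to 1 higher and medians of -0.85 to -0.52. The replicate block changed no other count of members called by over 1.5 times. Except for the smaller number of genes without _x_at and _s_at probe sets, the stricter threshold and the fewer arrays, the cause was not tested. Where no share of all probe sets stands beside a count, that share is not given here. The 4 dim members lie below the median level of all probe sets; their signal over background is not given.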
